A study of Mus musculus with 4 samples.

Results

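H3K14ac regions that lay far from any protein-coding gene were examined in C3H10T1/2 cells, with and without knockdown of Nap1l2. A region was counted as far when its summit lay at least 200 kb outside the extent of every protein-coding gene that RefSeq lists on the GRCm38 assembly. This rule used the position alone, not the height of the signal. It was met by 994 of the 10182 control regions and by 2301 of the 17955 knockdown regions on chromosomes 1 to 19, that is, by 3295 of 28137 regions. The whole lists, with the other chromosomes, held 28833 regions. The remaining 9188 control regions and 15654 knockdown regions on these chromosomes, called other regions here, lay in a protein-coding gene or less than 200 kb from one.

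Acetylation of lysine 14 of histone H3 (H3K14ac) was profiled by ChIP-seq in C3H10T1/2, an established mouse mesenchymal stem cell line from C3H embryos. One group carried a non-target control, although its titles read WT, and the other was infected with lentivirus that carried an shRNA against Nap1l2. The treatment text of every sample, controls included, mentions only the Nap1l2 shRNA, so how the control was made is not stated further. Each group had 1 H3K14ac library and 1 input library, so that no difference between the groups could be compared with a spread between replicates. No test was therefore run, and the knockdown itself could not be checked in these lists. Intervals in brackets are exact 95% Clopper-Pearson intervals for shares, or exact intervals for ratios of counts, and cover counting error only. Where such intervals overlap, the difference may still exceed counting error.

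NAP1L2 belongs to the nucleosome assembly protein family of histone chaperones, which carry histones to and from DNA, and the study asked whether it acts with the deacetylase SIRT1 on H3K14ac at bone genes. H3K14ac marks nucleosomes at active promoters and enhancers. Long stretches without protein-coding genes, known as gene deserts, often flank genes for developmental transcription factors and hold enhancers that act over long distances, and others flank the large genes for neuronal cadherins and receptors. Much other desert sequence has no known regulatory role.

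The distance rule did not exclude the start sites of non-coding genes. RefSeq promoter windows, which run from 250 bases before to 50 bases after the start of a gene, numbered 1023 in far territory of 31396 on these chromosomes. None of the control far regions and 1 knockdown far region overlapped such a window. It is the promoter window of the lncRNA gene Gm40430 on chromosome 12, at chr12:59659747-59660046 of GRCm38.p6 on the + strand. Its sequence is shown because no other promoter window was overlapped by a far region of either list. The summit of the region lay 168 bases before the start of the gene. Capitals mark the 112 of 300 bases that the H3K14ac region covered.

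Gm40430: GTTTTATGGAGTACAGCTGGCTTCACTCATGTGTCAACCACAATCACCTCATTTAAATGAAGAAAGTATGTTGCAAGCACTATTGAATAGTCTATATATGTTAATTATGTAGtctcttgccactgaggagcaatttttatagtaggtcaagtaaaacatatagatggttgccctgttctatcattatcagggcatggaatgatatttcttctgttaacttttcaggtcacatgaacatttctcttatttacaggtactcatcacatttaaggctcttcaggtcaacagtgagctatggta

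The region ran from 59659690 to 59659858, between Fbxo33 and Gm32936, with its summit 438 kb from the nearest protein-coding gene. It held 12 tags, a fold enrichment over input of 3.42 and a −log10 p of 3.44, with a −log10 q listed as 0. The window had a GC content of 36.0% and 0 CpG dinucleotides. Over all promoter windows in far territory the medians were 44.0% and 2, compared with 53.3% and 8 for the 30373 windows elsewhere. Overlap with a promoter window was also rare among the other regions, at 44 control regions (0.479%, 0.348 to 0.642%) and 57 knockdown regions (0.364%, 0.276 to 0.472%). The far share with such an overlap was 0% in the control (0 to 0.370%), whose interval overlapped that of the other regions, and 0.0435% in the knockdown (0.00110 to 0.242%), whose interval lay below theirs. Windows were also sparser in far territory, with 1023 in 19.1% of the span against 30373 in the rest. Fewer overlaps are therefore expected there at any placement of regions, and no share expected from window density was computed.

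To place the number of far regions, the length of far territory was measured. Between the first and the last summit of either list, the 19 chromosomes spanned 2399 Mb, of which 458 Mb (19.1%) lay at least 200 kb outside protein-coding genes, in 730 separate stretches. This span includes assembly gaps and repeats in which tags cannot be placed, and their part in the density of far regions was not tested. Far regions made up 9.76% of the control list (9.19 to 10.4%) and 12.8% of the knockdown list (12.3 to 13.3%). With the length of each chromosome weighted by its number of regions, far territory amounted to 19.4% and 19.3%, respectively. The far share was thus 0.504 of the territory share in the control and 0.664 in the knockdown. Per Mb, far territory held 2.17 control regions against 4.73 in the rest of the span, and 5.03 knockdown regions against 8.06.

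Far regions were therefore sparser than other regions in both lists, and the gap was smaller in the knockdown. The knockdown list held 2.31 times as many far regions as the control list (2.15 to 2.50), but 1.70 times as many other regions (1.66 to 1.75). The difference between the far shares was 3.05 percentage points. With the knockdown regions weighted to the chromosome mix of the control list, their far share was 12.97%.

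The pattern was then followed on each chromosome. The far share was below the territory share on 19 of 19 chromosomes in each list, and it was higher in the knockdown than in the control on 19 of 19. The intervals of both lists overlapped on 16 of these chromosomes. Intervals of the difference were not computed for single chromosomes, so this overlap does not show which differences exceed counting error. Chromosome 12 had the highest far shares, with 103 control far regions (15.97% of its regions) and 217 in the knockdown (19.8%). Chromosome 11 had the lowest control share, with 28 far regions (4.26%), against 78 (8.12%) in the knockdown. The shares were closest on chromosome 13, at 11.1% and 11.4%. Relative to territory, chromosome 19 came nearest to an even placement, at 0.741 in the control and 0.926 in the knockdown.

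**Figure D1:**
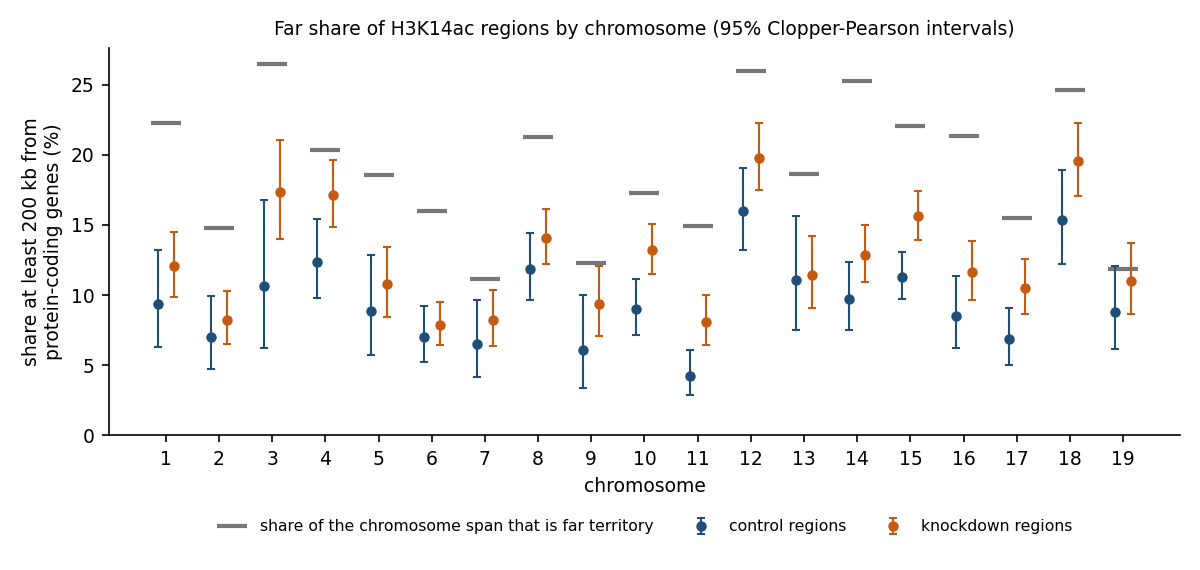
Share of H3K14ac regions that lay at least 200 kb from protein-coding genes (y axis, percent) on chromosomes 1 to 19 (x axis), for the control (blue) and the knockdown (orange), with 95% Clopper-Pearson intervals; grey bars give the share of the chromosome span that is far territory. Both points lie below the grey bar on all 19 chromosomes, and the knockdown point lies above the control point on all 19.

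Chromosome 15 stood apart by density. It carried 166 control far regions, 16.7% of all far regions in that list, and 266 in the knockdown (11.6%). These were 7.45 and 11.9 far regions per Mb of its far territory, the highest of any chromosome in each list. Its other regions were dense as well, at 16.6 and 18.3 per Mb, so its far share in the control was 11.3% and in the knockdown 15.6%. Chromosome 3 had the sparsest far territory, with 0.386 and 1.93 far regions per Mb. Its 16 control and 80 knockdown far regions gave a ratio of 5 between the lists, the highest of any chromosome, and its other regions had a ratio of 2.85. In general, the ratio of knockdown to control was higher for far regions than for other regions on 19 of 19 chromosomes.

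To see how the far share depends on regional density, copies of each list were moved along the chromosomes in both directions by 0.5 to 5 Mb, every 100 kb, with the spacing of the regions kept. The 92 moved copies of the control list had a mean far share of 15.8% ± 1.91 (SD over copies, range 11.2 to 18.6%), and those of the knockdown list 16.8% ± 1.45 (range 13.02 to 19.04%). The listed shares were 0.620 and 0.764 of these means. Both lay below every moved copy of their own list. The size of the move mattered. Copies moved by less than 1 Mb had a mean far share of 12.2% (11.2 to 13.5%) in the control and 13.9% (13.02 to 14.5%) in the knockdown. Copies moved by 4 Mb or more reached 17.9% (17.1 to 18.6%) and 18.3% (17.5 to 19.04%), close to the territory share. A move by a short distance often left a region in the same gene-rich or gene-poor stretch, and the copies are not independent of each other.

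**Figure D2:**
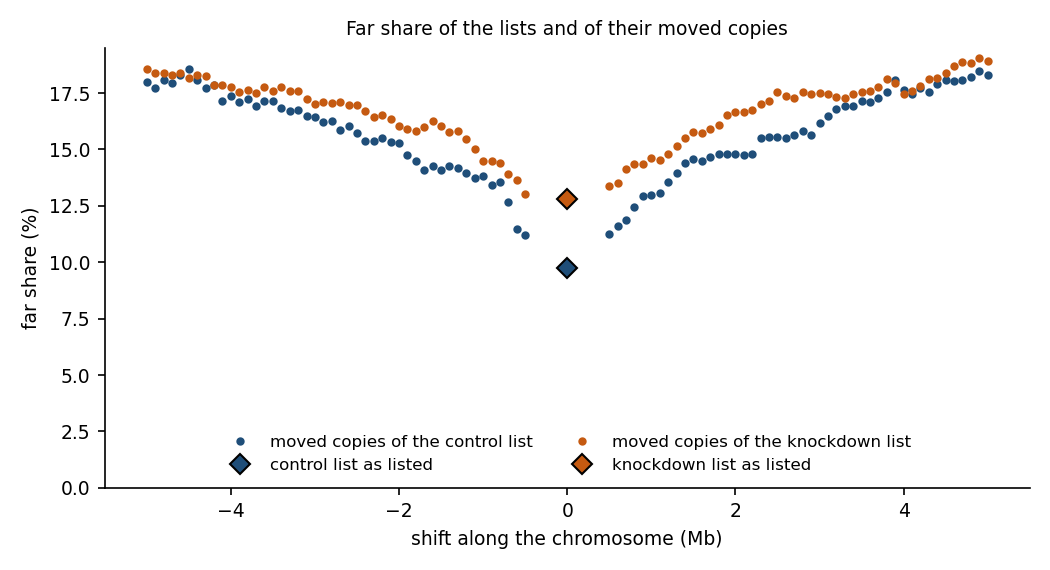
Far share (y axis, percent) of copies of the control list (blue) and the knockdown list (orange) moved along the chromosomes by the shift on the x axis (Mb), with the listed shares as diamonds at 0. The listed shares of 9.76% and 12.8% are the lowest points of each series, and the copies rise with the shift to 17.9% and 18.3% on average at 4 Mb or more.

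Beyond 100 kb, the number of regions fell with the distance from genes. Relative to the length of territory at each distance, control regions stood at 1.09 inside protein-coding genes, 1.20 within 50 kb of one and 1.01 at 100 to 200 kb. Among far regions the values were 0.790 at 200 to 300 kb (395 regions), 0.522 at 300 to 500 kb (311), 0.378 at 500 to 1000 kb (228) and 0.219 beyond 1000 kb (60). In the knockdown list, the same steps gave 0.955 (847 regions), 0.762 (796), 0.481 (502) and 0.319 (156). Among far regions, the intervals of neighbouring steps did not overlap in either list.

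The ratio of knockdown to control rose from 1.63 inside genes and 1.66 within 50 kb to 1.92 at 50 to 100 kb and 2.00 at 100 to 200 kb. In far territory it was 2.14 (1.90 to 2.42) at 200 to 300 kb, 2.56 (2.24 to 2.93) at 300 to 500 kb, 2.20 (1.88 to 2.59) at 500 to 1000 kb and 2.60 (1.92 to 3.56) beyond 1000 kb. These 4 intervals overlap, so no trend within far territory was resolved. The median distance of far regions was nearly the same in both lists, at 347 kb for control and 351 kb for knockdown regions.

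**Figure D3:**
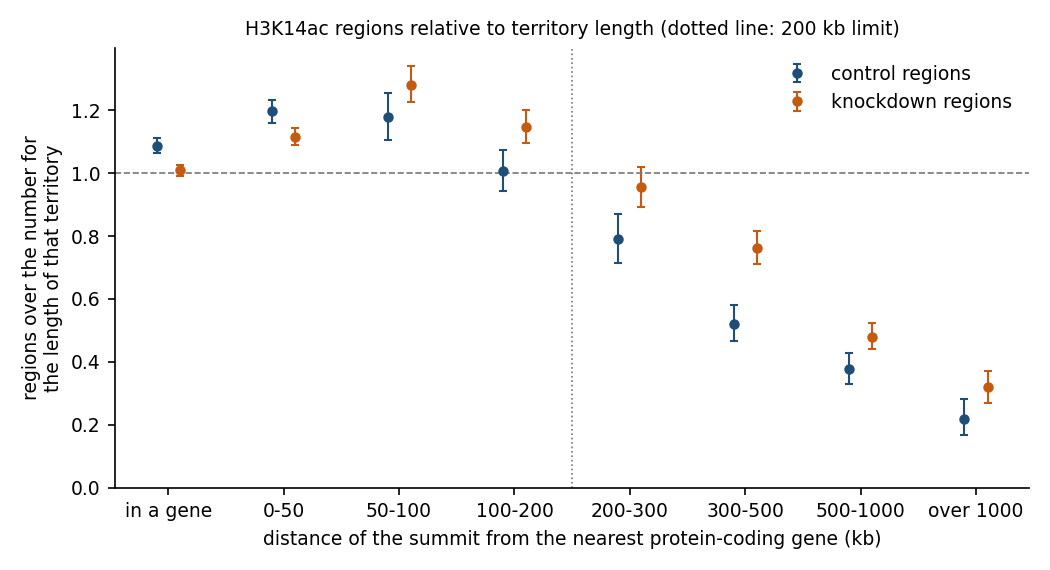
Number of H3K14ac regions relative to the number expected from the length of territory at each distance (y axis, ratio) by distance of the summit from the nearest protein-coding gene (x axis, kb), for the control (blue) and the knockdown (orange), with 95% intervals. The values are near or above 1 up to 200 kb and fall to 0.219 and 0.319 beyond 1000 kb.

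Far regions were small and close to the detection limit, as were the other regions. The number of ChIP tags at each summit was recovered from the deposited p-value and fold enrichment. The median was 13 tags in far and in other control regions, and 12 tags in far and in other knockdown regions. The lowest pileup listed at the genome-wide input background was 9 tags for the control and 8 for the knockdown. The knockdown libraries were the shallower pair, with a mean ChIP pileup of 2.26 tags per position against 2.50 in the control and an input background of 1.27 against 1.51, so that fewer tags sufficed for a region to be listed.

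Although the medians were alike, the share of strong regions differed. At least 16 tags were found in 13.2% of control far regions (11.1 to 15.4%) and in 15.4% of other control regions (14.6 to 16.1%), and in 9.65% of knockdown far regions (8.47 to 10.9%) against 13.1% (12.5 to 13.6%). The share was lower for far regions on 16 of 19 chromosomes in the control and on 17 of 19 in the knockdown. At least 20 tags were found in 12 far and 200 other regions of the control, and in 36 far and 473 other regions of the knockdown. The highest far region of the control held 24 tags, and that of the knockdown 33, compared with 93 and 65 among other regions. The intervals of far and other regions overlapped in the control and were separate in the knockdown, at 16 tags as well as at 20. Intervals of these differences were not computed, so the overlap does not show that the control lacks a difference.

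Far regions were also slightly narrower. The median width was 194 bp (range 165 to 563 bp) against 201 bp (165 to 830 bp) for other control regions, and 198 bp (165 to 810 bp) against 207 bp (165 to 857 bp) in the knockdown. Widths of 300 bp or more occurred in 11.5% of control far regions (9.55 to 13.6%) and 14.03% of other regions (13.3 to 14.8%), and in 15.1% (13.7 to 16.7%) and 17.5% (16.9 to 18.1%) in the knockdown. In all, the far regions of the control spanned 214 kb, and those of the knockdown 518 kb.

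The stated significance of far regions was low. A −log10 q of at least 1.3, equal to a false discovery rate of 0.05, was reached by 10 control far regions (1.01%, 0.483 to 1.84%), beside 1.07% of all control regions on these chromosomes. In the knockdown it was reached by 35 far regions (1.52%, 1.06 to 2.11%), beside 2.02% of all. The shares of far regions were thus at or below the background in both lists, with the background inside the interval. A −log10 p of at least 5 was reached by 124 control far regions (12.5%) and 234 knockdown far regions (10.2%), compared with 14.4% and 11.6% of other regions.

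The far share fell with the number of tags. Among regions with 10 tags or fewer it was 10.8% in the control and 14.6% in the knockdown. It was 10.7% and 13.4% at 11 to 12 tags, 9.22% and 11.98% at 13 to 15 tags, 8.95% and 10.6% at 16 to 19 tags, and 5.66% and 7.07% at 20 tags or more. The knockdown share was the higher one in each of these classes, but the intervals overlapped from 16 tags upwards. Among regions with at least 12 tags, the knockdown far share was higher on 17 of 19 chromosomes. With at least 16 tags it was higher on 11 of 19, and with a −log10 p of at least 5 on 13 of 19.

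**Figure D4:**
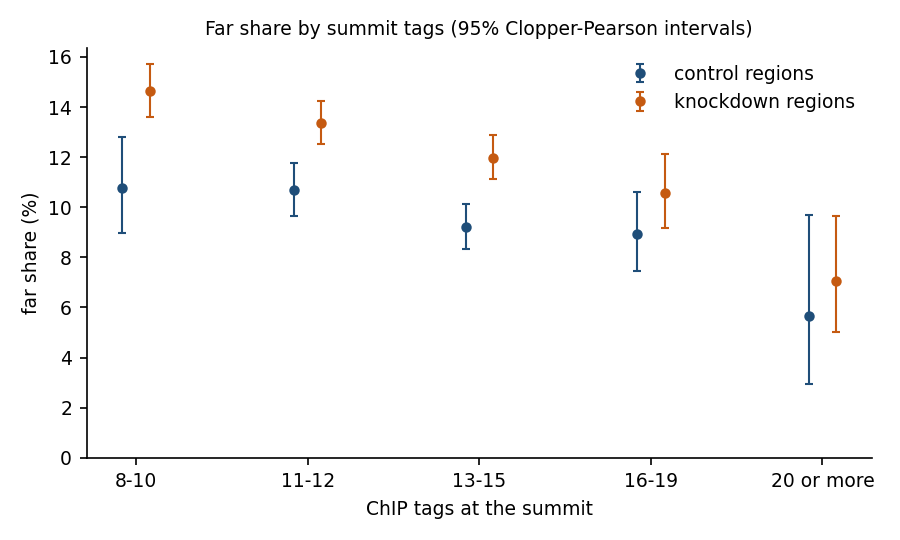
Share of regions that were far (y axis, percent) by number of ChIP tags at the summit (x axis), for the control (blue) and the knockdown (orange), with 95% Clopper-Pearson intervals. The share falls from 10.8% and 14.6% among regions with the fewest tags to 5.66% and 7.07% at 20 tags or more, and the intervals of the lists overlap in the highest classes.

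The input differed between far and other regions too. An input background above the genome-wide level was found at 45.2% of control far regions (42.0 to 48.3%) and 50.9% of other control regions (49.9 to 51.9%). In the knockdown these shares were 26.6% (24.8 to 28.4%) and 34.2% (33.4 to 34.9%). Far regions had the lower share on 15 of 19 chromosomes in each list. The share fell with distance, to 33.3% of control regions and 11.5% of knockdown regions beyond 1000 kb. A raised background demands more tags for a region to be listed, and its part in the far share was not tested. At the genome-wide background, where the limit is the same for far and other regions, 10.8% of control and 14.1% of knockdown regions were far, and the knockdown share was higher on 19 of 19 chromosomes. At the genome-wide background and with at least 12 tags in both lists, 349 control regions (10.1%, 9.08 to 11.1%) and 786 knockdown regions (13.4%, 12.5 to 14.3%) were far. The ratio between the lists was then 2.25 (1.98 to 2.56) for far and 1.63 (1.56 to 1.70) for other regions.

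The lists shared few far regions. An overlap of at least 1 bp was found for 10 far regions, which were 1.01% of the control far regions (0.483 to 1.84%), beside 2.17% of all control regions. They were 0.435% of the knockdown far regions (0.209 to 0.798%), beside 1.23% of all knockdown regions. Among other regions, 211 were shared, or 2.30% (2.00 to 2.62%) of the control and 1.35% (1.17 to 1.54%) of the knockdown. The intervals of far and other regions did not overlap in either list. With a distance of up to 1 kb allowed, 40 control far regions (4.02%, 2.89 to 5.44%) had a knockdown partner, compared with 5.90% (5.43 to 6.40%) of other control regions, and these intervals touched. In 200 copies of the control list moved by up to 1 Mb in steps of 10 kb, 4.89 ± 2.42 control regions (SD over copies, range 0 to 13) overlapped a knockdown far region. The 10 listed overlaps were 2.05 times that mean but lay inside the range. For other knockdown regions, the 211 listed overlaps were 4.08 times the mean of 51.7 ± 8.12 and lay above the range of 31 to 82.

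The 10 shared far regions lay in 10 different gene deserts, and 1 of them reached a −log10 q of at least 1.3 in either list. Their median was 13.5 control tags and 12 knockdown tags. The shared region with the highest −log10 p in its weaker list lay in the desert between Ctnna3, an alpha-catenin gene, and Reep3 on chromosome 10. It ran from 66780304 to 66780483 in the control (14 tags, −log10 p of 4.31) and from 66780358 to 66780669 in the knockdown (15 tags, −log10 p of 5.11). The next lay between Eef2kmt and Rbfox1, the gene of a neuronal splicing factor, on chromosome 16, with 16 control tags and 12 knockdown tags. On chromosome 15, a shared region between St3gal1 and Zfat held 16 and 13 tags, and on chromosome 12 one between Id2 and Rnf144a held 13 and 14 tags. Another on chromosome 12, in the lncRNA gene Gm31333 between Eipr1 and Myt1l, overlapped by 20 bp only, with 12 tags in the control from 29146917 to 29147130 and 25 tags in the knockdown from 29147111 to 29147609. In the other 9 shared far regions, the tags of the lists differed by at most 4.

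The strongest far regions were different in each list. In the control, the highest −log10 p was 8.09, with 20 tags and a fold enrichment of 5.21, for a region on chromosome 6 (11175561 to 11175749). It lay 725 kb from Ndufa4, a gene for a mitochondrial respiratory chain protein, and 1926 kb from Nxph1, the gene for neurexophilin 1. A region on chromosome 8 (127920351 to 127920545) between the polarity gene Pard3 and Nrp1, which encodes the co-receptor neuropilin 1, had the same 20 tags and −log10 p. The next 3 lay between Adcy8 and Efr3a on chromosome 15 (22 tags, −log10 p of 7.17), between Ebf1 and Clint1 on chromosome 11 (19 tags, 7.15) and between Ednrb and Pou4f1 on chromosome 14 (19 tags, 7.15). Their −log10 q ranged from 1.56 to 2.28.

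In the knockdown, the strongest far region held 33 tags, with a −log10 p of 12.2, a −log10 q of 5.64 and a fold enrichment of 6.54. It lay on chromosome 18 (83251339 to 83251595), 246 kb from Zfp516 in the desert towards Tshz1, a gene for a zinc finger transcription factor of development. Regions between Mmut and Ptchd4 on chromosome 17 and between Arpp21 and Pdcd6ip on chromosome 9 followed. Both held 24 tags, at a −log10 p of 9.98. The next pair lay on chromosome 12 between Eipr1 and Myt1l, the gene of a neuronal transcription factor, with 27 tags (−log10 p of 9.32) and 25 tags (8.97). The second of this pair was the shared region in Gm31333.

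The most remote regions lay in deserts of several Mb. The farthest control region was 1935 kb from Olfm4, towards Pcdh17 on chromosome 14, with 14 tags. In the knockdown, the 4 farthest all lay in the desert between Celf4 and Pik3c3 on chromosome 18, at 2058 to 2167 kb from the nearer gene. One of these 4, at 2165 kb and inside the non-coding gene Gm33860, held 22 tags with a −log10 p of 8.94, and the others held 12 or 13 tags. At the limit itself, the control regions just inside were at 200.071 kb from Sox9, with 15 tags, and at 200.215 kb from Dusp10, and those just outside at 199.891 kb from Mon1b and 199.595 kb from Pard3. The knockdown regions just inside were at 200.198 kb from Prdm2 and 200.441 kb from Cdh9, and those just outside at 199.999 kb from A530021J07Rik and 199.883 kb from Foxa2.

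The far regions were spread over many deserts, each counted as a stretch of far territory between neighbouring protein-coding genes. Control regions were found in 366 of the 730 stretches and knockdown regions in 535, with both in 328, control regions alone in 38 and knockdown regions alone in 207. The 157 stretches without a region were short, with a median of 94.8 kb of far territory, compared with 451 kb for those with a region. The knockdown had more regions than the control in 435 stretches, the control had more in 69, and the numbers were equal in a further 69.

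The 10 stretches with the most regions held 325 of the far regions (9.86%) in 4.07% of far territory. The first was the desert between Myc, the gene of a growth-promoting transcription factor, and Gsdmc on chromosome 15, with 17 control and 24 knockdown regions in 1386 kb. Of these, 0 control and 2 knockdown regions lay in Pvt1, the lncRNA gene beside Myc. Deserts between the cadherin genes Cdh6 and Cdh9 (15 and 23 regions) and between Cdh18 and Basp1 (15 and 22) on the same chromosome followed. The stretch between Id2, which encodes an inhibitor of helix-loop-helix transcription factors, and Rnf144a was the densest of the 10 in both lists, at 12.3 control and 22.2 knockdown regions per Mb. Klhl29 to Apob on chromosome 12 had 6 control and 25 knockdown regions, and Ctnna3 to Reep3 had 9 and 27, the most uneven counts of the 10. All 10 held more knockdown than control regions.

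**Figure D5:**
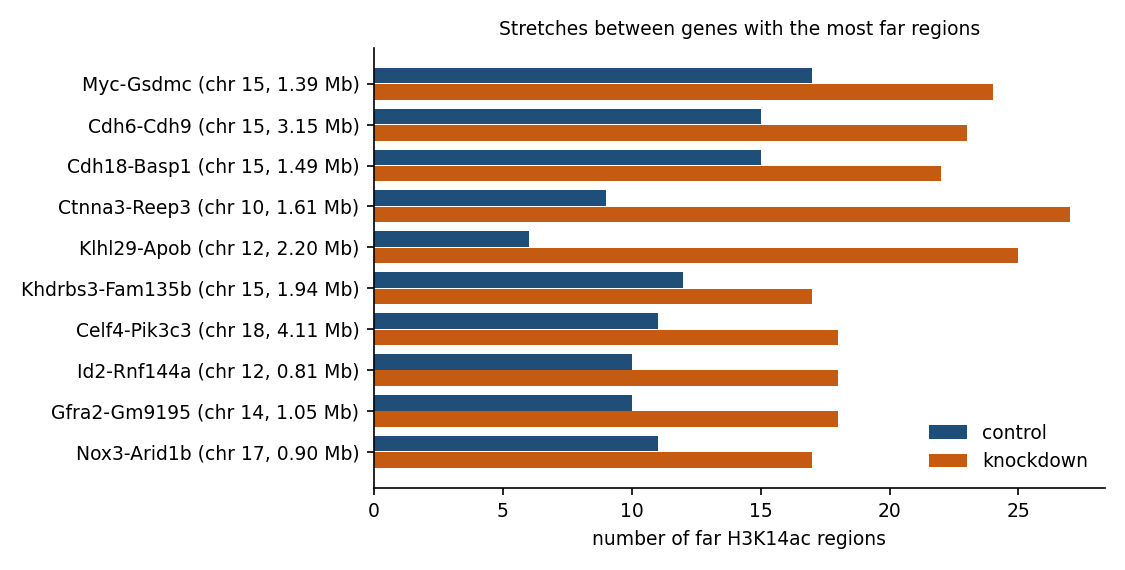
Number of far H3K14ac regions (x axis) in the control (blue bars) and the knockdown (orange bars) for the 10 stretches of far territory with the most regions in both lists together, named by the flanking protein-coding genes, with the chromosome and the length of far territory in Mb (y axis). The orange bar is the longer one in all 10, from 17 and 24 regions between Myc and Gsdmc to 11 and 17 between Nox3 and Arid1b.

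Length alone did not set the number of regions. The longest stretch, 4142 kb between the protocadherin genes Pcdh20 and Pcdh9 on chromosome 14, held 1 control and 4 knockdown regions, with 9 to 13 tags. The stretch between Celf4 and Pik3c3, 4111 kb long, held 11 and 18. A stretch of 2420 kb between 1700015G11Rik and Luzp2 on chromosome 7 and one of 2049 kb between Adgrl2 and Adgrl4 on chromosome 3 held no region of either list.

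Stretches were then grouped by the genes that flank them. Developmental regulators flanked 62 stretches with 97 control and 203 knockdown regions, or 2.61 and 5.47 per Mb, beside 2.17 and 5.03 over all far territory. At the far density of each chromosome, these stretches would hold 65.7 and 163 regions. Examples were Sall3 to Galr1 on chromosome 18 (11 and 17), Gm52008 to Bcl11b on chromosome 12 (5 and 11), Sall1 to Tox3 on chromosome 8 (7 and 8) and Zeb2 to Acvr2a on chromosome 2 (2 and 8 in 3297 kb). On either side of Sox9, the transcription factor that directs cartilage formation, there were 6 control and 7 knockdown regions towards Gm11677 and 4 and 2 towards Slc39a11. No region of either list lay in 8 of the 62 stretches, among them Sox2 to Atp11b on chromosome 3 (702 kb). The ratio of knockdown to control in this group was 2.09.

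Skeletal and mesenchymal genes flanked 25 stretches with 47 control and 106 knockdown regions, at 3.33 and 7.51 per Mb. The far density of each chromosome would give 48.6 and 99.2 regions, close to the listed numbers. The ratio was 2.26. Csmd3 to Trps1, a zinc finger gene of cartilage and hair development, held 9 and 18 regions on chromosome 15. Cdh8 to Cdh11, the gene of osteoblast cadherin, held 7 and 16, and Sntb1 to Has2, a hyaluronan synthase gene, held 7 in each list. Gdf6, a joint-forming member of the BMP family, had 5 in each list, and the stretch between Ddhd1 and Bmp4, which encodes a bone morphogenetic protein, held 2 and 5. The stretches beside Bmp2 held 0 control regions, with 2 knockdown regions towards Fermt1 and 1 towards Hao1. In 6 of the 25 stretches there was no region of either list, among them Inhba to Sugct on chromosome 13 (426 kb).

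Neuronal adhesion and synaptic genes flanked 121 stretches, which made up 32.1% of far territory but held 23.9% of control and 23.5% of knockdown far regions. Their 238 control and 540 knockdown regions were 1.62 and 3.67 per Mb, against 344 and 754 regions at the far density of each chromosome, with a ratio of 2.27. No region of either list lay in 18 of these stretches, beside 157 of all 730. The 121 neuronal stretches covered 147 Mb of far territory, the 62 of developmental regulators 37.1 Mb and the 25 of skeletal genes 14.1 Mb. The density of regions fell with distance from genes, and the far density of each chromosome takes no account of distance or stretch length. Their part in the numbers of the groups was not tested. Some stretches count in more than 1 group. In each of the 3 groups the ratio between the lists was close to the 2.31 of all far regions.

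Inside far territory, non-coding genes did not gather the regions in one list more than in the other. Of the control far regions, 133 (13.4%, 11.3 to 15.7%) had their summit in a RefSeq gene of another type than protein-coding, and 309 (13.4%, 12.1 to 14.9%) in the knockdown, beside 11.6% of far territory. These were lncRNA genes for 120 and 264 regions, respectively. The most regions were found in the antigen receptor loci Tcra on chromosome 14 (2 and 10), Igh on chromosome 12 (2 and 8) and Igk on chromosome 6 (2 and 7), which RefSeq does not type as protein-coding although their segments encode receptor chains. They held 6 control and 25 knockdown far regions together. Among lncRNA genes, Gm32647 held 1 and 7 regions and Gm33228 held 4 and 3. A control far region with 14 tags had its summit in the microRNA gene Mir466f-4, between Adamts16 and Irx1 on chromosome 13. Another, with 19 tags, lay 1.59 kb from Mir802, between Runx1 and Setd4 on chromosome 16.

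Within a list, far regions lay closer to each other in the knockdown, the list with more regions. The median spacing between neighbours on a chromosome was 94.2 kb for control and 45.9 kb for knockdown regions. A neighbour within 2 kb was found for 29 control far regions (2.92%) and 106 knockdown far regions (4.61%), and within 10 kb for 103 (10.4%) and 422 (18.3%). The same shares were not computed for other regions, so these values do not describe a trait of far regions. The part of the larger number of knockdown regions was not tested.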

How the data were processed

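The authors deposited 1 list of regions for each of the 2 H3K14ac libraries, each called against its matched input. The submitters' processing notes name BWA 0.7.13, Picard 1.126, MACS2 2.1.0 and the build mm10. Names given to the lists state that duplicates were removed, that the p-value limit was 0.01 and that the lists were filtered, and they show a library number of a different run of numbers for the control ChIP, so a batch difference and the group difference cannot be told apart. The deposited columns hold a score, the fold enrichment (the ratio of the ChIP signal at the summit to the input nearby), the −log10 p-value and the −log10 q-value.

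Distances were computed from the summit to the extents of 20665 protein-coding RefSeq genes of GRCm38.p6 on chromosomes 1 to 19. Whole numbers of ChIP tags and the input background were solved from the p-value and the fold enrichment under the Poisson model of MACS2, within 0.0005 of the −log10 p. All entries (100%) were solved, with more than 1 solution for 1 knockdown entry. The procedure was tested on simulated data. ChIP tags exceeded input tags by a factor of 1.66 for the control and 1.77 for the knockdown. Overlaps were computed with bedtools 2.31.1, and intervals with scipy 1.17.1.

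Regions named in the text were the 5 of each list with the highest −log10 p, the 5 farthest from a gene, the 5 shared regions with the highest −log10 p in the weaker list, and those next to the 200 kb limit. Stretches named were the 10 with the most regions, the longest, the longest without a region and examples of those flanked by genes of 3 lists. The members and the gene lists were chosen with earlier results of these data known, and stretches without a region were chosen after their values were seen. Other distance limits, gene sets, thresholds and overlap rules were tried.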

Additional observations from a re-analysis of the deposited data

How the results depend on the processing

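With the other settings, the far share stayed below the territory share in both lists, the knockdown far share stayed above the control far share, and the ratio of far regions between the lists stayed above 1. The sizes moved. At a limit of 100 kb, 1848 control and 4012 knockdown regions were far (18.1% and 22.3%, or 0.655 and 0.809 of the territory share), a difference of 4.20 percentage points. At 500 kb there were 288 and 658 (2.83% and 3.66%, or 0.328 and 0.429), a difference of 0.836 points, with 0.347% of the control far regions shared. With RefSeq genes of every type in place of protein-coding genes, 101 and 211 regions remained (0.992% and 1.18%, or 0.412 and 0.495). The ratio was 2.09, 0% were shared, and the difference was 0.183 points, with overlapping intervals of the shares. Without genes of provisional symbols the shares were 10.9% and 13.9%.

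With a −log10 p of at least 5 there were 124 and 234 far regions (8.58% and 11.4%, or 0.442 and 0.590), a ratio of 1.89 and 0% shared. The difference was 2.83 points. The intervals of the shares (7.18 to 10.14% and 10.06 to 12.9%) overlapped, which does not show that the difference lies within counting error. A −log10 q of at least 1.3 left 10 and 35 (9.17% and 9.64%, or 0.454 and 0.496), a ratio of 3.5 and 0% shared. The difference was 0.468 points, with overlapping intervals of the shares. A fold enrichment of at least 4 left 99 and 223 (8.41% and 11.8%, or 0.435 and 0.6102), with 0% shared. With equal numbers of entries in both lists the knockdown had 1289 far regions, a ratio of 1.297, and 0.402% were shared. With at least 12 tags it had 1226 (11.6%), a ratio of 1.77, and the values relative to territory were 0.474 and 0.598. At the genome-wide background, a setting chosen after seeing the data, the control had 545 far regions, the shares were 10.8% and 14.1% (0.567 and 0.737 of territory), the ratio was 3.10 and 0.367% were shared. Where an overlap of 50% of both regions was required, 0.302% of control far regions were shared, and within 1 kb 4.02%. The differences in percentage points were also added after seeing the data. The cause of these changes was not tested, beyond the smaller or larger number of regions that each setting keeps.

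No paired analysis was possible because there was only 1 library in a group, and for the same reason leaving out a replicate was not run. Most far regions were listed on a few tags above the limit of their library. The lists alone cannot tell an absent region from one that stayed below that limit, and this was not tested. Among regions with the fewest tags, the ratio between the lists cannot be told apart from the lower tag limit of the knockdown library, and at 12 tags or more the ratio was 1.77.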
